A study of Mus musculus with 9 samples.

Results

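The genes of MHC class I and its peptide loading pathway were followed in BeCon cells, mouse ovarian tumor cells, in 9 RNA sequencing libraries. The members are 31 named genes, taken by symbol from a table of 48230 genes: the light chain B2m, heavy chains, class I-like molecules, the peptide transporter and its partners, proteasome subunits, peptidases and the transactivator Nlrc5. All 31 were in the table, once each. In 4 libraries the cells came from the ascites of B6 mice that bore BeCon tumors and received YKL-05-099, which inhibits salt-inducible kinases. In 4 further libraries they came from such mice given vehicle. A single library came from BeCon cells kept in culture and has no replicate. The cells from mice had been sorted as viable, CD45-negative and MHC class I-positive, so class I protein was itself a condition of entering both mouse groups. Dose, duration and mouse age are not stated in the sources used here. Nor is it stated how many mice went into a library, and the p-values below therefore rest on library-to-library spread that may be technical.

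Class I molecules carry peptides of the cell's own proteins to its surface, where CD8 T cells read them. The peptides are cut by the proteasome, moved into the endoplasmic reticulum by the TAP transporter, trimmed by aminopeptidases and loaded onto a heavy chain paired with beta-2-microglobulin, with tapasin, calreticulin and ERp57 in the loading complex. Interferons raise much of the pathway through IRF factors and through NLRC5, which acts on a conserved promoter module of class I genes.

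Promoter stretches of 4 heavy chain genes are shown because H2-K1 and H2-D1 were abundant in these cells while H2-Q7 and H2-Q4 were low. The stretches are from RefSeq on GRCm38.p6 and printed 5′ to 3′ on the strand of the gene. They come from H2-K1 (chr17:34000350-34000474, minus strand), H2-D1 (chr17:35262907-35263031, plus strand), H2-Q7 (chr17:35439005-35439129, plus strand) and H2-Q4 (chr17:35379427-35379551, plus strand). Capitals mark 4 motifs searched on both strands: AANNGAAA, the core that IRF factors recognise; GGGNNTTCC, a core that NF-kappaB factors recognise; TGACG, part of a CRE; and CCAAT. These motifs were chosen after the sequences had been read, and they do not mark out the module that NLRC5 acts on. In H2-Q4 the marked TGACG lies after ATTGG, while in H2-K1, H2-D1 and H2-Q7 it lies before ATTGG.
H2-K1: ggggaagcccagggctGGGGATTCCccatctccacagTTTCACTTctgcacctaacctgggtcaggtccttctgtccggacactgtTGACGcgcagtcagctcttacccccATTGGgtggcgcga
H2-D1: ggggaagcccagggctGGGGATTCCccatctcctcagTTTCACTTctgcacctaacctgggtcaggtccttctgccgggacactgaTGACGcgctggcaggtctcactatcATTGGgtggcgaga
H2-Q7: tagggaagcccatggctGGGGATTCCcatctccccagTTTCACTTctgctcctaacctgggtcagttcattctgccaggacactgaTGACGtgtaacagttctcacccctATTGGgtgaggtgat
H2-Q4: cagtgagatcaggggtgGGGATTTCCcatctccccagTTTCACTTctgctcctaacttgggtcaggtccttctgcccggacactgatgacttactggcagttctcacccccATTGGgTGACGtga

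Aligned with H2-K1, the H2-D1 stretch was 90.4% identical, the H2-Q7 stretch 82.7% and the H2-Q4 stretch 82.4%. The transcript levels of these genes were far less alike. H2-K1 averaged 263 FPKM in YKL-05-099 and 184 FPKM in vehicle cells, and H2-Q7 averaged 0.326 FPKM in YKL-05-099 and 0.224 FPKM in vehicle cells. FPKM scales the fragments of a gene by its length and by the size of the library, so that levels can be set side by side between genes.

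The promoters of B2m and of the pair Tap1 and Psmb9 are shown because B2m and Tap1 had the largest rises on the log2(FPKM + 1) scale and because Tap1 and Psmb9 start back to back. The B2m stretch (chr2:122147507-122147666, plus strand) holds an IRF core, a TGACG and a CCAAT on the other strand. The 225 bases between the RefSeq starts of Psmb9 and Tap1 (chr17:34187331-34187555, on the strand of Tap1) hold a CCAAT and a TGACG.
B2m: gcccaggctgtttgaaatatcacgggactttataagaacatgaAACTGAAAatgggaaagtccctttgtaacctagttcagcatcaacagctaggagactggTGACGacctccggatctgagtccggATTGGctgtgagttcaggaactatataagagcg
Tap1 and Psmb9: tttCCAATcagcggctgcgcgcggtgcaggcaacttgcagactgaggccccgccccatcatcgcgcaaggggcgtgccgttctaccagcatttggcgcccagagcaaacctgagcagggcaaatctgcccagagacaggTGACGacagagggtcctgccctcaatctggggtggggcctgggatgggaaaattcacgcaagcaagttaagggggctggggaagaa

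RefSeq promoters were found for 26 of the 31 members, with H2-T24, Cd1d1, Tap2, Tapbpl and Nlrc5 not matched. In the 250 bases before the start, 11 of the 26 genes held the IRF core, which 21.3% of all 32851 promoters of that length held. TGACG was in 12 of the 26 (17.8% of all promoters), and CCAAT in 18 of the 26 (33.8%). The NF-kappaB core was in 5 of the 26, H2-K1, H2-D1, H2-Q4, H2-Q6 and H2-Q7 (4.98% of all promoters). All 5 are heavy chain genes, and the stretches of H2-D1, H2-Q7 and H2-Q4 were 82.4 to 90.4% identical to that of H2-K1. The motifs were also chosen after sequences of members had been read, so these shares are no test of enrichment. Members were counted by gene and the background by promoter, so a gene with several promoters could have more chances of a match. For all 4 motifs the member counts and the percentages are therefore not directly comparable. The NF-kappaB count covers GGGNNTTCC only, so a similar run of another spacing, such as gggaaagtccc in the B2m stretch, was not counted. A match is a run of letters in this window and no measurement of binding.

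The libraries differed in traces of other cells, and these values belong beside all treatment results below. Pan-leukocyte markers (14 genes) summed to 2.45 to 18.5 FPKM in YKL-05-099 and 30.7 to 69.3 FPKM in vehicle libraries, macrophage markers (12 genes) to 21.9 to 82.2 FPKM in YKL-05-099 and 145 to 321 FPKM in vehicle libraries, and erythroid markers (6 genes) to 1.45 to 92.8 FPKM in YKL-05-099 and 244 to 1487 FPKM in vehicle libraries. None of these 3 sums overlapped between the groups. Ptprc, which encodes CD45, stood at 0.130 ± 0.117 FPKM in YKL-05-099 and 0.520 ± 0.208 FPKM in vehicle cells (SD, n = 4 each). T and NK cell markers (8 genes) summed to at most 0.231 FPKM in YKL-05-099 and 0.451 FPKM in vehicle libraries, and all 8 were listed at 0 in culture. Fibroblast markers (7 genes), some of which tumor cells can express, summed to 517 to 598 FPKM in YKL-05-099 and 609 to 653 FPKM in vehicle libraries. Most of this sum was Dcn, which was not called (means 503 FPKM in YKL-05-099 and 523 FPKM in vehicle). Of the 5 fibroblast markers tested 4 were called lower without overlap, against 15.1% lower among all genes tested. Mean FPKM in YKL-05-099 and vehicle were 2.86 and 19.7 for Col1a2, 4.23 and 9.52 for Col1a1, 5.95 and 12.1 for Pdgfra, and 48.8 and 66.6 for Col3a1. Leukocytes carry class I transcripts too. A fit with the pan-leukocyte marker level as a covariate is given below. That level did not overlap between the groups, so the part of these traces in the results cannot be told apart from treatment. In such bulk samples fewer cells of a type and less RNA per cell cannot be told apart. Of the 9 epithelial markers Wt1, Krt8, Krt18, Krt19, Krt7 and Msln were present in both mouse groups, while Epcam, Cdh1 and Pax8 stood below 1 FPKM.

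**Figure D1:**
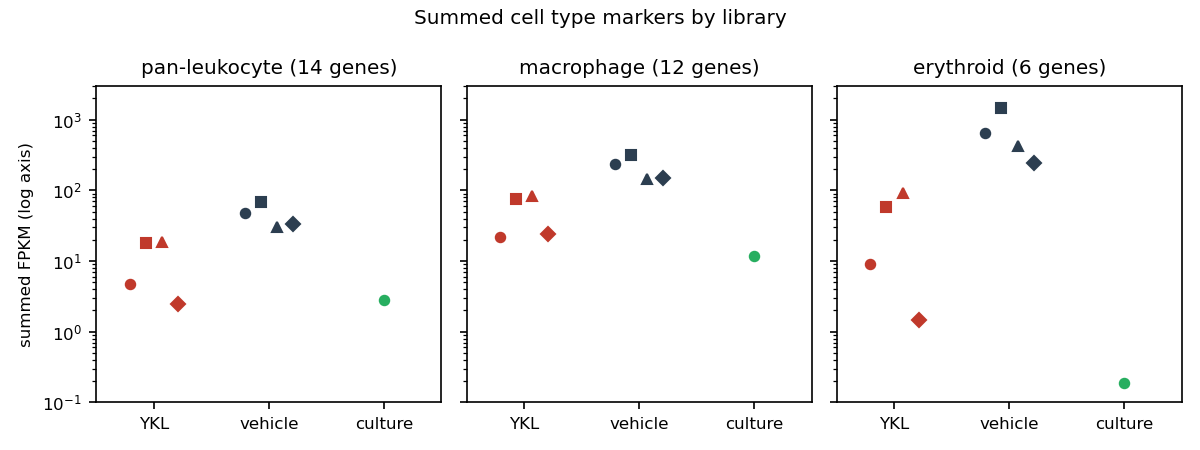
Summed FPKM (log axis) of pan-leukocyte, macrophage and erythroid markers in each library, with YKL-05-099 (YKL), vehicle and cultured cells from left to right and 1 symbol shape per replicate number. In all 3 panels the 4 YKL-05-099 libraries lie below the 4 vehicle libraries.

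Most of the pathway was higher after YKL-05-099. Of the 31 members 27 reached 1 FPKM in at least 4 of the 8 mouse libraries and were tested, and 18 of the 27 rose while 2 fell (limma, Benjamini-Hochberg adjusted p under 0.05 over 11788 genes). Among all genes tested 43.2% were called, 28.0% higher and 15.1% lower. The members and the other lists below were chosen with earlier results of these data known. Their counts beside these shares are therefore a description and no independent support. Of all calls 64.9% were higher, against 52.4% after median-of-ratios and 51.0% after quantile scaling. Median-of-ratios scaling called 2572 genes higher and 2338 lower, with 13 members higher and 3 lower. Quantile scaling called 2513 genes higher and 2419 lower, with 16 members higher and 3 lower. Without such scaling and without Nlrc5, which passed the filter only through the YKL-05-099 group, 17 of 26 members rose. The median change on the log2(FPKM + 1) scale was 0.28 over the 27 and 0.05 over all genes tested. The largest rise on this scale was 0.76. With the pan-leukocyte marker level as a covariate only B2m and Tap1 kept their call (log2 changes 0.75 and 0.63, limma adjusted p = 0.0376 and 0.0221). Over all genes tested the calls fell as well with this covariate, from 3304 to 528 higher and from 1785 to 297 lower. The median SE of the 27 was 0.144 with it and 0.0755 without it. Their median change was 0.28 in both fits, but with the covariate the log2 changes of Calr, Pdia3 and Canx were 0.11, 0.14 and 0.0055, against 0.46, 0.31 and 0.20 without it. Those of Psmb9 and H2-M3, not called in either fit, were 0.10 and 0.07 with it, against 0.61 and 0.27 without it. For 10 of the 27 every YKL-05-099 library lay above every vehicle library, and for 2 below, against 26.5% and 13.5% of all genes tested.

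**Figure D2:**
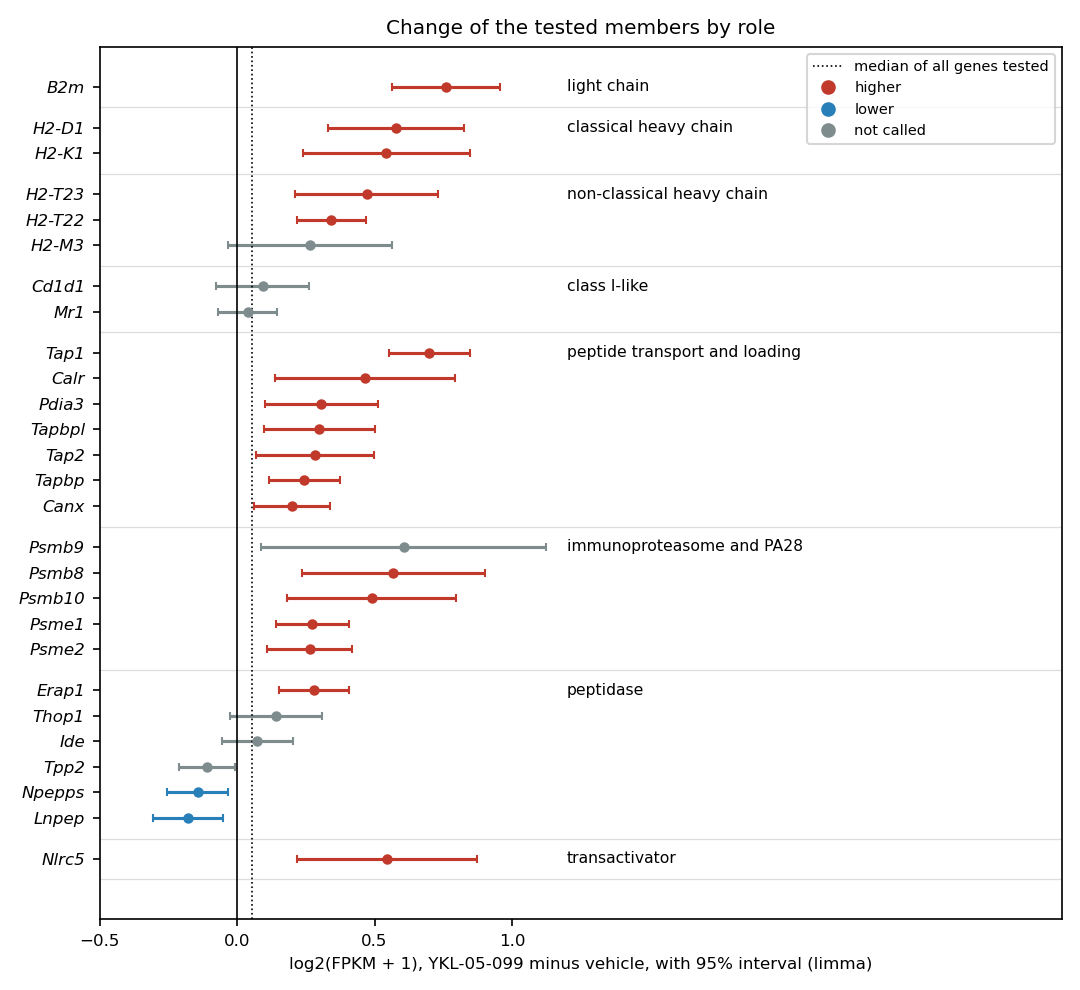
Difference in log2(FPKM + 1), YKL-05-099 minus vehicle, with its 95% interval from limma, for the 27 tested members grouped by role. Red marks the 18 members called higher, blue the 2 called lower and grey the 7 not called, and the dotted line is the median of all genes tested, 0.05.

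The light chain had the largest rise among the members on the log2(FPKM + 1) scale. This order depends on the added 1 and on vehicle replicate 4, since with 0.1 in place of 1 Nlrc5 led with 0.89, against 0.76 for B2m, and without vehicle replicate 4 Psmb9 led with 0.87, against 0.83 for B2m. B2m (chromosome 2, 122147686 to 122153083) stood at 1118, 1005, 1029.6 and 1019 FPKM in the 4 YKL-05-099 libraries, against 609.6, 634, 520.5 and 713 FPKM in the 4 vehicle libraries. The groups did not overlap. Its log2 change was 0.76 (SE 0.0884, limma adjusted p = 0.000169). B2m ranked 26th of the 11788 tested genes by mean level in YKL-05-099 and 76th in vehicle cells.

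Both classical heavy chains, which present peptides to CD8 T cells, rose as well. H2-K1 (chromosome 17, 33996017 to 34000333) was at 274, 260.4, 246 and 272 FPKM in YKL-05-099 libraries and at 173, 179, 139 and 243 FPKM in vehicle libraries (log2 change 0.54, SE 0.136, limma adjusted p = 0.00973). H2-D1 (chromosome 17, 35262730 to 35267499) was at 163, 152, 143 and 152 FPKM in YKL-05-099 against 99.4, 111, 79.7 and 121 FPKM in vehicle (log2 change 0.58, SE 0.110, limma adjusted p = 0.00251). Neither gene overlapped between the groups, although vehicle replicate 4 came close to the lowest YKL-05-099 library for H2-K1. Class I heavy chain genes are similar copies that can share reads, so their separate values are uncertain.

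The heavy chains were also set against the light chain. Within each library H2-K1 amounted to 24.5, 25.9, 23.9 and 26.6% of the B2m FPKM in YKL-05-099 cells, against 28.4, 28.3, 26.8 and 34.1% in vehicle cells. H2-D1 amounted to 14.6, 15.1, 13.9 and 14.9% of B2m in YKL-05-099 cells, against 16.3, 17.6, 15.3 and 17.0% in vehicle cells. Both ratios were lower in every YKL-05-099 library than in any vehicle library, by 0.22 and 0.18 as differences of log2(FPKM + 1). The exact two-sided permutation test gave p = 0.0286 for each, the smallest that 4 against 4 libraries allow, and 0.0714 after adjustment over the 5 ratios tested, so neither passed. The percentages do not move with the scaling of a library.

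Of 7 non-classical heavy chains 3 were tested and 2 of these rose, against 28.0% of all genes tested. H2-T23 encodes Qa-1, which shows leader peptides to the NKG2A receptor of NK cells. It was at 44.4, 43.4, 47.1 and 40.05 FPKM in YKL-05-099 and 28.5, 32.4, 25.7 and 40.1 FPKM in vehicle libraries (log2 change 0.47, SE 0.116, limma adjusted p = 0.00919). Vehicle replicate 4 overlapped the lowest YKL-05-099 library. H2-T22, a ligand of gamma delta T cells, averaged 24.4 ± 0.812 FPKM in YKL-05-099 and 19.02 ± 1.39 FPKM in vehicle cells (SD, n = 4 each) without overlap (log2 change 0.34, SE 0.0562, limma adjusted p = 0.00109). H2-M3, which presents formylated peptides, averaged 8.82 ± 0.351 FPKM in YKL-05-099 and 7.33 ± 1.97 FPKM in vehicle and was not called (95% interval of the log2 change -0.03 to 0.56, limma adjusted p = 0.137).

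The 4 remaining non-classical genes were too low to be tested. H2-Q4 was at 0.592, 0.571, 0.664 and 0.574 FPKM in YKL-05-099 and at 1.01, 0.929, 0.969 and 0.844 FPKM in vehicle libraries. Its values lay lower in all YKL-05-099 libraries than in any vehicle library, unlike those of H2-K1 and H2-D1. H2-Q6, H2-Q7 and H2-T24 overlapped between the groups and averaged 0.312, 0.326 and 0.814 FPKM in YKL-05-099 and 0.260, 0.224 and 0.678 FPKM in vehicle cells.

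The class I-like molecules Cd1d1, which presents lipids to NKT cells, and Mr1, which presents vitamin B metabolites to MAIT cells, were not called. Cd1d1 averaged 3.56 ± 0.320 FPKM in YKL-05-099 and 3.27 ± 0.225 FPKM in vehicle cells, with a 95% interval of the log2 change from -0.08 to 0.26. Mr1 averaged 17.4 ± 0.784 FPKM in YKL-05-099 and 16.9 ± 0.517 FPKM in vehicle, with an interval from -0.07 to 0.15 (SD, n = 4 each). These intervals lie below the log2 changes of B2m, H2-K1 and H2-D1, but the difference between genes was not tested.

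All 7 members for peptide transport and loading rose, against 28.0% of all genes tested, and Tap1 led them. Tap1, a subunit of the peptide transporter (chromosome 17, 34187553 to 34197225), stood at 20.4, 17.1, 17.4 and 18.7 FPKM in YKL-05-099 libraries and at 10.6, 11.7, 10.2 and 11.2 FPKM in vehicle libraries. The groups were far apart, and vehicle replicate 4 was not the highest of its group. The log2 change was 0.70 (SE 0.0655, limma adjusted p = 5.36e-05). Tap2, the other subunit, was at 32.5, 31.8, 35.6 and 31.4 FPKM in YKL-05-099 against 24.9, 27.1, 22.98 and 33.03 FPKM in vehicle, with overlap and a log2 change of 0.28 (SE 0.0967, limma adjusted p = 0.0383). This call was lost in 7 of the 8 fits that left out 1 library each, all but the one without vehicle replicate 4 (limma adjusted p from 0.00138 to 0.0987).

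Tapasin and its relative rose as well. Tapbp, which encodes tapasin, the bridge between TAP and the heavy chain, was at 268, 266, 256 and 266 FPKM in YKL-05-099 and 210.1, 226, 209 and 247 FPKM in vehicle libraries (log2 change 0.25, SE 0.0575, limma adjusted p = 0.00724). Tapbpl, which encodes the peptide editor TAPBPR, averaged 6.97 ± 0.412 FPKM in YKL-05-099 and 5.51 ± 0.806 FPKM in vehicle (log2 change 0.30, limma adjusted p = 0.0231). Neither gene overlapped between the groups.

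The general chaperones of the loading complex rose too. Calr, which encodes calreticulin, was at 401, 412, 386 and 465 FPKM in YKL-05-099 libraries and at 269, 262, 268 and 430.4 FPKM in vehicle libraries (log2 change 0.46, SE 0.147, limma adjusted p = 0.028). Vehicle replicate 4 stood inside the YKL-05-099 range, while the other 3 vehicle libraries lay close together. Pdia3, which encodes ERp57, averaged 293 ± 10.02 FPKM in YKL-05-099 and 238 ± 37.4 FPKM in vehicle cells, and the lectin chaperone gene Canx 165 ± 11.9 FPKM in YKL-05-099 and 144 ± 8.99 FPKM in vehicle. Their log2 changes were 0.31 and 0.20 (limma adjusted p = 0.0221 and 0.0265), both with overlap. After median-of-ratios scaling Calr, Pdia3, Canx, Tap2 and Tapbpl kept their direction but were no longer called, with limma adjusted p from 0.0506 to 0.0953. Calr, Canx and Pdia3 each lost the call in 5 of the 8 fits without 1 library, with limma adjusted p up to 0.0802, 0.0699 and 0.0622, among them the fits without vehicle replicate 1, 2 or 3. Tapbpl lost it in 3 of the 8, those without YKL-05-099 replicate 3 or vehicle replicate 1 or 3 (up to 0.0643).

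The immunoproteasome has 3 inducible catalytic subunits, Psmb8, Psmb9 and Psmb10, which take the place of Psmb5, Psmb6 and Psmb7. Psmb8 (chromosome 17, 34197721 to 34201454) stood at 61.6, 56.9, 60.7 and 56.5 FPKM in YKL-05-099 and at 33.5, 38.3, 32.6 and 57.4 FPKM in vehicle libraries (log2 change 0.57, SE 0.149, limma adjusted p = 0.0123). Psmb10 was at 39.95, 36.6, 46.6 and 38.3 FPKM in YKL-05-099 and at 25.3, 25.02, 25.8 and 39.3 FPKM in vehicle (log2 change 0.49, SE 0.137, limma adjusted p = 0.0167, and 0.0507 without vehicle replicate 2). Psmb9 was at 16.3, 11.8, 12.1 and 14.1 FPKM in YKL-05-099 and at 6.15, 7.92, 6.71 and 15.5 FPKM in vehicle, and was not called (log2 change 0.61, SE 0.232, limma adjusted p = 0.0582). For all 3 genes vehicle replicates 1 to 3 lay below every YKL-05-099 library and vehicle replicate 4 lay among them. Without vehicle replicate 4 the log2 change of Psmb9 was 0.87 (limma adjusted p = 0.00033). Psmb9 and Tap1 overlap by their loci on opposite strands, so their separate values are uncertain unless strand was used in counting, which the sources do not state.

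The constitutive counterparts gave no call. Psmb5 averaged 54.3 ± 3.56 FPKM in YKL-05-099 and 53.9 ± 3.21 FPKM in vehicle cells, Psmb6 224 ± 12.6 FPKM in YKL-05-099 and 223 ± 14.4 FPKM in vehicle cells, and Psmb7 95.3 ± 3.11 FPKM in YKL-05-099 and 95.3 ± 3.45 FPKM in vehicle cells. Their log2 changes had 95% intervals within -0.13 to 0.14. Of the 17 genes in the list of constitutive proteasome subunits and partners all were tested, 1 rose (Psma1, a subunit of the outer ring, log2 change 0.17, limma adjusted p = 0.0193) and 1 fell (Psme3), with a median log2 change of 0.00. Among all genes tested 28.0% rose and 15.1% fell. Psme3, which encodes PA28 gamma, averaged 53.8 ± 2.47 FPKM in YKL-05-099 and 63.96 ± 2.21 FPKM in vehicle cells (log2 change -0.25, limma adjusted p = 0.00221).

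Set against its counterpart within each library, Psmb8 amounted to 114, 101, 106 and 115% of Psmb5 in YKL-05-099 cells and to 67.7, 67.0, 60.2 and 105% in vehicle cells. Psmb9 amounted to 7.26, 5.54, 5.02 and 6.50% of Psmb6 in YKL-05-099, against 2.84, 3.28, 3.22 and 6.88% in vehicle. Psmb10 amounted to 40.7, 40.1, 49.1 and 39.3% of Psmb7 in YKL-05-099, against 27.3, 25.1, 27.8 and 40.9% in vehicle. The mean differences of log2(FPKM + 1) were 0.56, 0.60 and 0.49, and the exact two-sided permutation test adjusted over the 5 ratios gave p = 0.0952, 0.114 and 0.114. This outcome rested on vehicle replicate 4, since without it the differences were 0.73, 0.86 and 0.64 with an adjusted exact permutation p of 0.0357 each. Before adjustment 0.0286 is the smallest p that 3 against 4 libraries allow. Leaving out the overlapping library fixed this result, so it adds no support.

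**Figure D3:**
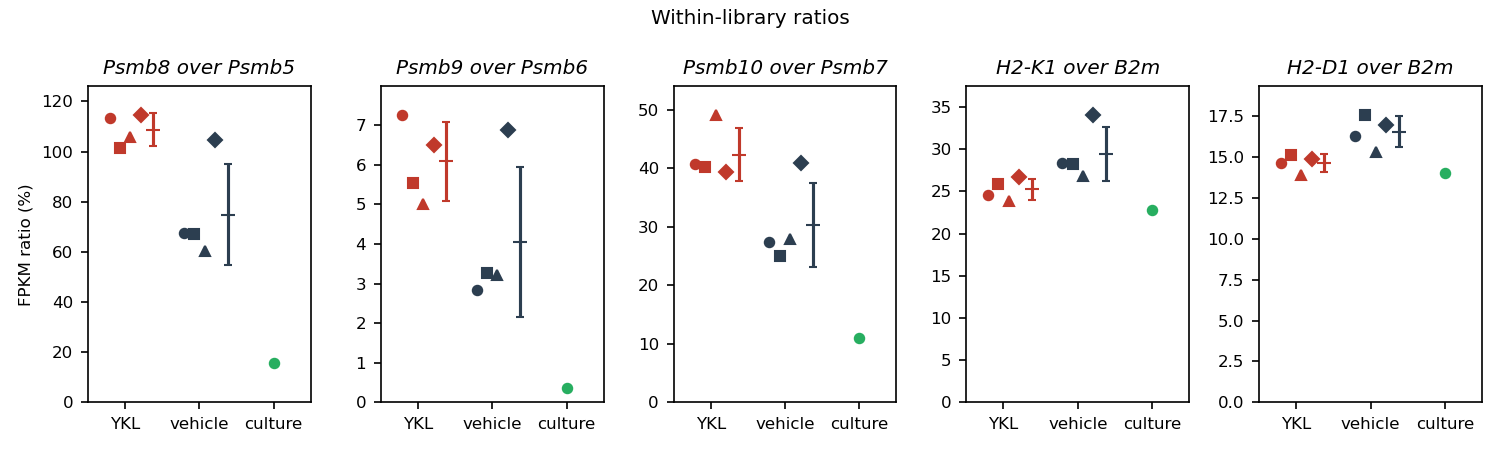
FPKM of the first gene as a percentage of the second within each library, for YKL-05-099 (YKL), vehicle and cultured cells, with mean and SD beside each mouse group and 1 symbol shape per replicate number. In the 3 proteasome panels the diamond of the vehicle group, replicate 4, lies among the YKL-05-099 libraries while the other 3 vehicle libraries lie below them.

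Both subunits of the proteasome activator PA28, which opens the proteasome for peptide release, rose by small amounts. Psme1 averaged 111 ± 6.59 FPKM in YKL-05-099 and 92.01 ± 6.35 FPKM in vehicle cells (log2 change 0.27, SE 0.0594, limma adjusted p = 0.00483), without overlap. Psme2 averaged 81.9 ± 6.25 FPKM in YKL-05-099 and 68.04 ± 5.16 FPKM in vehicle (log2 change 0.26, SE 0.0688, limma adjusted p = 0.0119). Its lowest YKL-05-099 value, 72.6 FPKM in replicate 4, lay inside the vehicle range.

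Of the 6 peptidases 1 rose, 2 fell and 3 were not called, where 28.0% of all genes tested rose and 15.1% fell. Erap1, the aminopeptidase of the endoplasmic reticulum that trims class I peptides, stood at 17.8, 17.3, 18.4 and 16.8 FPKM in YKL-05-099 against 14.6, 14.1, 13.1 and 15.4 FPKM in vehicle libraries (log2 change 0.28, SE 0.0571, limma adjusted p = 0.00362). Lnpep, an endosomal aminopeptidase linked to cross-presentation, fell and stood at 21.04, 20.4, 20.1 and 19.6 FPKM in YKL-05-099, against 24.5, 21.5, 24.8 and 21.8 FPKM in vehicle (log2 change -0.18, SE 0.0569, limma adjusted p = 0.0291). Npepps, a cytosolic aminopeptidase, averaged 38.8 ± 0.844 FPKM in YKL-05-099 and 42.97 ± 2.65 FPKM in vehicle and fell (log2 change -0.14, SE 0.0495, limma adjusted p = 0.0398). In both genes the groups did not overlap, but the margins were narrow. Lnpep lost the call in 5 and Npepps in 6 of the 8 fits without 1 library, with limma adjusted p up to 0.0822 and 0.11, in both genes without YKL-05-099 replicate 2, 3 or 4 or vehicle replicate 1 or 3. Npepps lost it without YKL-05-099 replicate 1 too.

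The cytosolic Tpp2, Thop1 and Ide, which can trim or destroy peptides, were not called. Tpp2 averaged 25.9 ± 0.337 FPKM in YKL-05-099 and 27.99 ± 1.47 FPKM in vehicle cells (log2 change -0.11, limma adjusted p = 0.0825). It was called lower after median-of-ratios scaling, after quantile scaling and without vehicle replicate 4 (log2 changes -0.16, -0.16 and -0.14, limma adjusted p = 0.0149, 0.016 and 0.0184). Thop1 averaged 7.32 ± 0.665 FPKM in YKL-05-099 and 6.54 ± 0.476 FPKM in vehicle, and Ide 51.3 ± 4.12 FPKM in YKL-05-099 and 48.6 ± 1.78 FPKM in vehicle, with 95% intervals of the log2 change from -0.03 to 0.31 and from -0.05 to 0.20.

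Nlrc5, the transactivator of class I genes, was the least abundant tested member. It stood at 2.46, 2.20, 1.45 and 1.49 FPKM in YKL-05-099 and at 1.24, 0.851, 0.651 and 1.17 FPKM in vehicle libraries, without overlap. The log2 change was 0.55 (SE 0.146, limma adjusted p = 0.0135). The added 1 in log2(FPKM + 1) understates the change of a gene this low. Only 2 vehicle libraries reached 1 FPKM, so the gene passed the filter through the group where it is high, and its call describes these libraries with no independent weight.

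**Figure D4:**
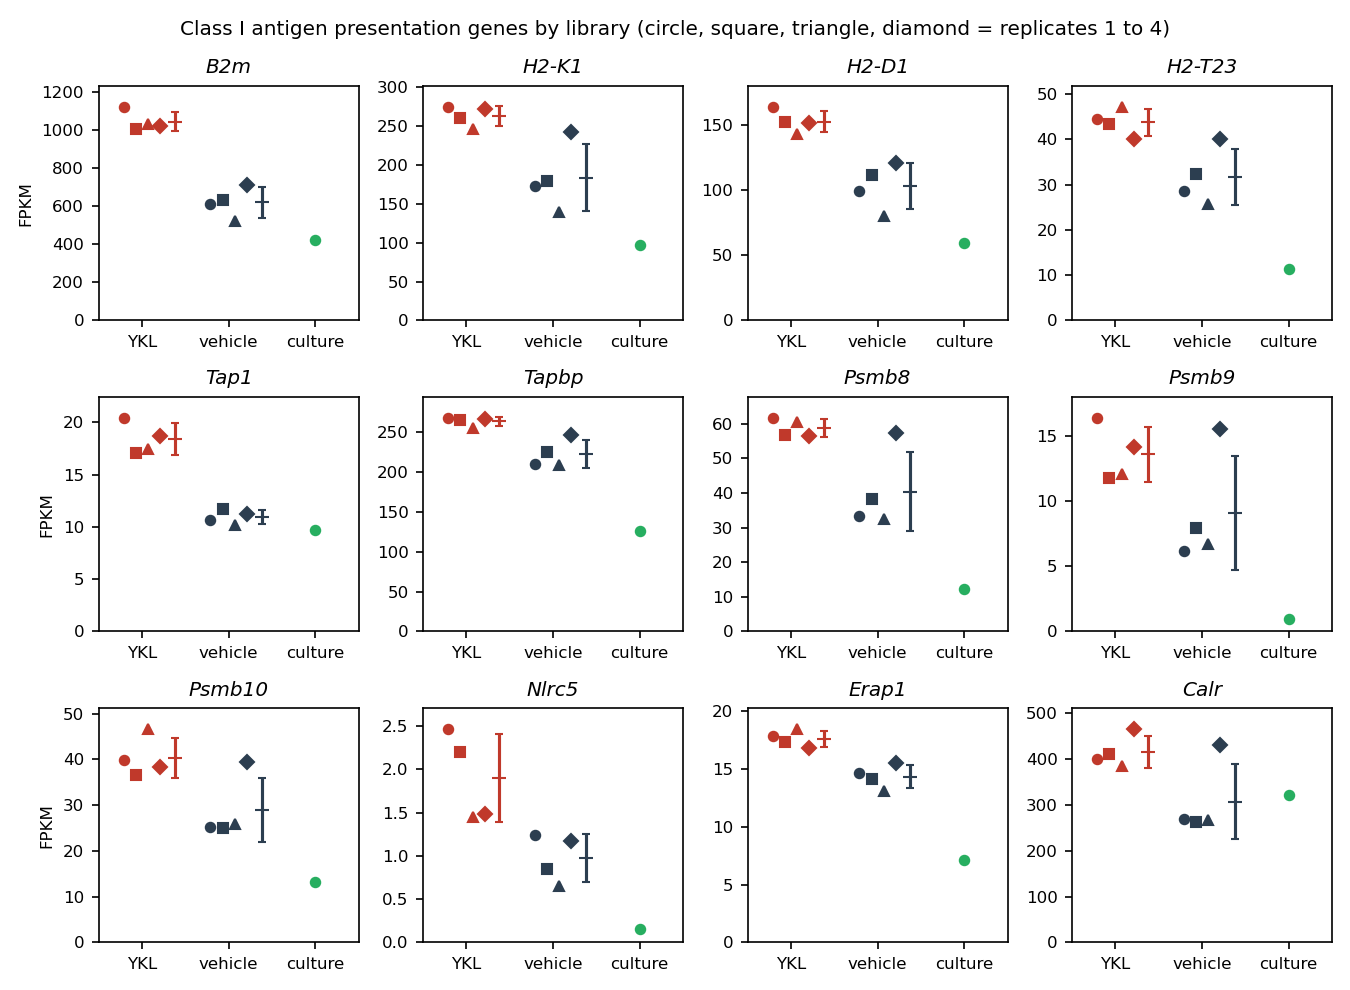
FPKM of 12 members in each library (linear axis from 0), with YKL-05-099 (YKL), vehicle and cultured cells from left to right, mean and SD beside each mouse group and 1 symbol shape per replicate number. B2m and Tap1 show 2 separate mouse groups, whereas for Psmb8, Psmb9, Psmb10 and Calr the diamond of vehicle replicate 4 lies at the height of the YKL-05-099 libraries.

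Vehicle replicate 4 was the highest of the 4 vehicle libraries for 19 of the 27 tested members, against 31.7% of all genes tested. It stood at or above the lowest YKL-05-099 library for 8 of the 18 members called higher. Its pan-leukocyte sum, 33.3 FPKM, was the second lowest of the vehicle group. The class II genes, which the transactivator Ciita governs, stood high in the same library, with Cd74 at 220.1, 251, 222 and 170.4 FPKM in YKL-05-099 and 268, 293, 216 and 532 FPKM in vehicle libraries. Of 10 class II genes 7 were tested and 0 were called by limma, with 1 at an unadjusted p under 0.05 (median log2 change -0.34, smallest adjusted p 0.0646 for H2-Aa). Among all genes tested 43.2% were called. Without vehicle replicate 4 limma called 20 of the 27 class I members higher, all 18 from before with Psmb9 and H2-M3, and 3 lower, Tpp2 with Lnpep and Npepps. Over all genes the calls grew as well, from 3304 to 3482 higher and from 1785 to 2016 lower.

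Among 25 regulators of class I genes tested, 12 rose and 1, Nfyb, fell, where 28.0% of all genes tested rose and 15.1% fell. The median log2 change was 0.09. Irf7, an amplifier of interferon responses, averaged 15.4 ± 0.782 FPKM in YKL-05-099 and 4.58 ± 0.186 FPKM in vehicle cells (log2 change 1.55, limma adjusted p = 2.9e-07). Irf9 and Stat2, factors of the interferon response, rose too. Irf9 averaged 19.99 ± 0.874 FPKM in YKL-05-099 and 9.29 ± 0.401 FPKM in vehicle cells, and Stat2 8.54 ± 0.930 FPKM in YKL-05-099 and 3.91 ± 0.469 FPKM in vehicle cells (log2 changes 1.03 and 0.96). Irf1, which binds class I promoters, was at 70.02, 58.7, 57.4 and 54.7 FPKM in YKL-05-099 against 40.3, 30.2, 28.97 and 41.6 FPKM in vehicle (log2 change 0.77, SE 0.124, limma adjusted p = 0.00101).

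Rfx5, a subunit of the RFX complex that holds NLRC5 at the promoter, averaged 19.2 ± 1.92 FPKM in YKL-05-099 and 15.8 ± 1.58 FPKM in vehicle (log2 change 0.26, limma adjusted p = 0.0298), and Irf2 averaged 19.8 ± 2.12 FPKM in YKL-05-099 and 22.5 ± 3.70 FPKM in vehicle without a call (limma adjusted p = 0.23). Ezh2, a histone methyltransferase known to silence class I genes, rose to 30.7 ± 1.31 FPKM in YKL-05-099, against 21.1 ± 1.48 FPKM in vehicle (log2 change 0.52, limma adjusted p = 0.000118).

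Of 22 other class I and class I-like genes looked up, 19 were in the table and 7 were tested. Of the 7, 6 rose (28.0% of all genes tested), among them H2-T10, which reached 1 FPKM in 1 vehicle library and passed the filter through the YKL-05-099 group. Without it 5 of 6 rose. They included 2 ligands of the NKG2D receptor, Raet1d, at 3.27 ± 0.453 FPKM in YKL-05-099 and 1.39 ± 0.115 FPKM in vehicle cells, and Ulbp1, at 13.05 ± 1.65 FPKM in YKL-05-099 and 9.36 ± 0.888 FPKM in vehicle cells (log2 changes 0.83 and 0.44, limma adjusted p = 0.000113 and 0.00361). Fcgrt, the neonatal Fc receptor that pairs with beta-2-microglobulin, averaged 38.7 ± 1.98 FPKM in YKL-05-099 and 32.2 ± 0.215 FPKM in vehicle (log2 change 0.25, limma adjusted p = 0.00164), and Raet1e 12.9 ± 0.809 FPKM in YKL-05-099 and 11.2 ± 0.237 FPKM in vehicle (log2 change 0.19). The loci of Raet1d and Raet1e overlap, so their separate values are uncertain. Among 11 neighbours of peptide loading in the endoplasmic reticulum 6 rose, against 28.0% of all genes tested, and 5 were not called (median log2 change 0.20). The smallest p-values were those of Bcap31, a cargo receptor, and Prkcsh, a glucosidase subunit, with log2 changes of 0.20 and 0.24 (limma adjusted p = 0.00261 and 0.00441). Hsp90b1, which encodes the chaperone GRP94, and Uggt1, which returns unfolded glycoproteins to the lectin chaperones, followed with 0.48 and 0.16 (limma adjusted p = 0.00932 and 0.0197).

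In culture 18 of the 27 members with enough transcript lay below all 8 mouse libraries, 5 above them and 4 inside their range, against 36.2% below and 37.4% above among all 12296 genes with enough transcript. A member was counted as apart when the cultured library lay outside all 8 mouse libraries and at least 1 log2(FPKM + 1) unit from the vehicle mean. By this rule of size, with no test, 5 of the 27 were apart and lower and 0 were apart and higher, against 10.6% and 9.62% of 12296 genes. The 5 were Psmb9 (0.976 FPKM in culture), Psmb8 (12.2 FPKM), Tapbpl (1.43 FPKM), H2-T23 (11.3 FPKM) and Psmb10 (13.2 FPKM). Their differences from vehicle were -2.26, -1.62, -1.41, -1.39 and -1.04 log2 units, and from YKL-05-099 -2.87, -2.19, -1.71, -1.86 and -1.53.

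Beside their counterparts the inducible proteasome subunits were low in culture. Psmb8 amounted to 15.9% of Psmb5, Psmb9 to 0.355% of Psmb6 and Psmb10 to 10.9% of Psmb7 in the cultured library. The constitutive genes were above every mouse library, with Psmb5 at 76.6, Psmb6 at 275 and Psmb7 at 121 FPKM. The heavy chain amounted to 22.8% of B2m for H2-K1, below every mouse library, and to 14.01% for H2-D1, inside the YKL-05-099 range.

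The abundant class I transcripts were lower in culture by less than that rule asks. B2m stood at 424 FPKM, H2-K1 at 96.6 FPKM, H2-D1 at 59.5 FPKM and Tapbp at 126 FPKM in culture, all below every mouse library. Their differences from the vehicle mean, which the rule uses, were -0.53, -0.89, -0.76 and -0.81 log2 units. From the YKL-05-099 mean they were -1.29, -1.43, -1.34 and -1.06. Also below every mouse library were Cd1d1, Mr1, Tap2, Psme1, Psme2, Erap1 and Ide. The differences of these genes from the vehicle mean lay between -0.91 and -0.21 log2 units. Tap1, at 9.67 FPKM, differed by -0.16 log2 units from the vehicle mean and by -0.86 from the YKL-05-099 mean. H2-T22 (20.7 FPKM) and H2-M3 (8.37 FPKM) lay inside the range of the mouse libraries. Nlrc5 stood at 0.153 FPKM in culture, below every mouse library.

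The members above all 8 mouse libraries were chaperones and cytosolic peptidases. The chaperone genes Canx (247 FPKM) and Pdia3 (353 FPKM) and the cytosolic peptidase genes Npepps (77.4 FPKM) and Thop1 (10.4 FPKM) exceeded every mouse library, with differences from vehicle of 0.78, 0.58, 0.84 and 0.60 log2 units. Tpp2 (30.5 FPKM) differed by 0.12. Calr, at 321 FPKM, and Lnpep, at 23.5 FPKM, lay among the vehicle libraries. The class II genes stood far lower in culture, with Cd74 at 0.184 FPKM, H2-Ab1 at 0.0265 FPKM, and H2-Aa and Ciita listed at 0. Pan-leukocyte markers summed to 2.83 FPKM and macrophage markers to 11.7 FPKM in culture. No sort is stated for the cultured cells, and a single library gives no error.

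**Figure D5:**
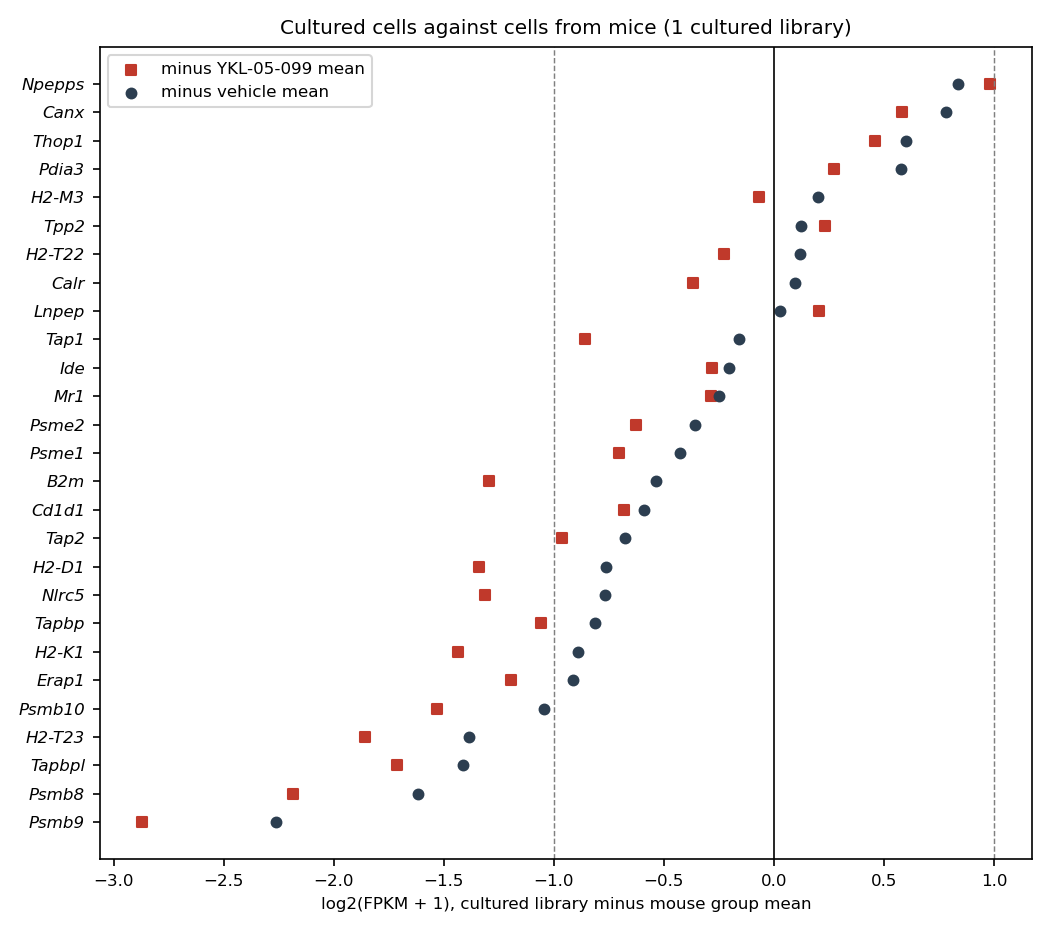
Difference in log2(FPKM + 1) between the cultured library and the mean of each mouse group, for the 27 members with enough transcript, ordered by the difference from vehicle. Dashed lines mark 1 log2 unit, and Psmb9, Psmb8, Tapbpl, H2-T23 and Psmb10 lie beyond it on the lower side against both mouse groups.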

How the data were processed

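Libraries were made with a TruSeq Stranded mRNA kit, per the labels' protocols. The authors deposited 1 table with an FPKM value and a status for each gene and library. The submitters' processing notes give bcl2fastq 2.19 and GRCm38, and the sources used here name no aligner or quantification program. From 48302 rows, 7 genes with a failed estimate were left out and 1 row, the longest locus, was kept per gene identifier, leaving 48230 genes. FPKM is not a count, so the depth behind a value is unknown. FPKM summed to 453169 to 482851 per library, and 11421 to 11893 genes reached 1 FPKM.

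Groups came from sample titles. YKL-05-099 and vehicle were compared in limma 3.58.1 (R 4.3.3), fitting log2(FPKM + 1) with a mean-variance trend to genes at 1 FPKM or more in at least 4 of 8 mouse libraries, with Benjamini-Hochberg adjustment over all genes tested and calls under 0.05. This scale understates changes of low genes. The 5 ratios were differences of log2(FPKM + 1) within a library, tested by an exact permutation test in Python 3.11.15. The limma fit was tested on simulated data. Locus starts, which the table counts from 0, are given from 1. The members and lists were chosen with earlier results of these data known. All 31 members are described, with up to 4 genes of each other list by smallest p, and Irf1, Irf2 and Rfx5. A further gene of that rule is not reported here. Alternatives were other pseudocounts, filters and scalings, all 9 libraries, no trend, a replicate block, a leukocyte covariate and omission of each library. Irf8, H2-Q8, H2-Q9 and H2-T9 are not analysed here.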

Additional observations from a re-analysis of the deposited data

Results flagged for a closer look

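A library far from the others of its group of 4, by Dixon's gap test, was seen in 9 of 72 sets of values (62 for the members and 10 for the ratios), where chance gives about 1 in 20. In 4 of the 9 the library was vehicle replicate 4, the highest of its group. These were Calr at 430.4 FPKM with the next at 269 FPKM (gap over range 0.955), Psmb10 at 39.3 and 25.8 FPKM (0.947), Pdia3 at 294 and 224 FPKM (0.867), and the log2 ratio of Psmb9 to Psmb6 at -3.78 and -4.76 (0.858). YKL-05-099 replicate 4 was lowest for Psme2, at 72.6 FPKM with the next at 84.3 FPKM (0.881), and highest for Ide, at 57.5 and 49.7 FPKM (0.872). YKL-05-099 replicate 3 was lowest for Tapbp, at 256 and 266 FPKM (0.837), and highest for the log2 ratio of Psmb10 to Psmb7, at -1.01 and -1.28 (0.845). H2-T24 was lowest in vehicle replicate 3, at 0.446 FPKM with the next at 0.737 FPKM (0.879).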

How the results depend on the processing

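All 18 members called higher were called again with pseudocounts of 0.1 and 0.5, TPM scaling, all 9 libraries, no trend, and without vehicle replicate 4. With no filter 11 of the 18 were called higher, neither Lnpep nor Npepps was called, and H2-Q4, not tested before, was lower. TPM scaling lost Npepps and called H2-Q4 lower. With a mean FPKM of at least 5, 17 were called higher. Without trend 1 was called lower. The labels state no pairing of same-numbered libraries. Their deviations correlated at -0.0184, 0.133, -0.0467 and 0.172, against -0.266 to 0.158 for pairs of unlike number, which cannot settle whether a pairing exists. The replicate block called 4830 genes, 18 members higher (Psmb9 gained, Tap2 lost) and 1 lower. With the pan-leukocyte mean as a covariate, which differs between the groups, 825 genes were called, 2 members higher (B2m and Tap1) and 0 lower. Of the 18 members called higher, 3 (Calr, Canx and Pdia3) had with it a log2 change over 1.5 times smaller than without it. Leaving out 1 library gave 13 to 20 members higher, 0 to 3 lower and 4182 to 5498 genes. The log2 ratio differences then ran between 0.47 and 0.73 for Psmb8 over Psmb5, 0.48 and 0.86 for Psmb9 over Psmb6, 0.41 and 0.64 for Psmb10 over Psmb7, -0.26 and -0.14 for H2-K1 over B2m, and -0.22 and -0.15 for H2-D1 over B2m. Without vehicle replicate 4 H2-D1 over B2m had an adjusted exact permutation p of 0.0357, with a difference of -0.17 against -0.18 in the main test. Its unadjusted p was already the smallest possible in the main test. The lower adjusted value came from the adjustment over the 5 ratios and adds no support. Members that were not called changed sign, Mr1 to -0.0088 with median-of-ratios scaling, -0.017 with quantile scaling and -0.019 with the covariate, Cd1d1 to -0.0077 with quantile scaling, and Ide to -0.10 with the covariate. At 2 log2 units 1 member was apart and lower in culture, and 4 to 6 were at 1 unit without 1 library each. The cause of these differences was not tested. One cultured library and unknown depth limit what low members such as H2-Q6 and H2-Q7 can show.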
